A study of Homo sapiens with 6 samples.

Results

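Retinoic acid is carried in the cytosol by cellular retinoic acid-binding proteins and read in the nucleus by retinoic acid receptors, and 9 genes of this pathway were followed in human iPSC-derived neurons with and without isoproterenol. The genes were the binding proteins CRABP1 and CRABP2, the receptors RARA, RARB and RARG, the partner receptors RXRA and RXRB, and the metabolic enzymes CYP26B1 and DHRS3. All 9 were found by gene name among the 19823 genes of the table. They were chosen with the comparison of isoproterenol with untreated neurons already known, so their values in that comparison are a description. No p-value is given for them there, and counts of members past a threshold stand only beside the share of all genes that passed it and support nothing.

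RNA-seq was performed on 6 samples of iNeurons, glutamatergic excitatory neurons differentiated from the parental line of the human iPSC line WTc11 by doxycycline-inducible NGN2, a transcription factor that drives neuronal fate. All 6 samples had the RBM12 knockdown, made by CRISPR interference, which blocks transcription of a gene with a catalytically dead Cas9. Untreated neurons made up 3 of the samples, and the other 3 had received isoproterenol, an agonist that raises cAMP. The labels state neither the dose nor the duration of the treatment. Neurons with a control guide were not analysed here, and the values describe the response of RBM12-depleted neurons only, on 1 iPSC line. The labels do not say whether replicates were separate differentiations, and p-values therefore measure only the spread between these samples, which may be technical. Because the samples are bulk cultures, fewer cells of a type and less RNA per cell cannot be told apart.

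In this pathway, retinol is oxidized to retinaldehyde and then to retinoic acid. Retinoic acid binds heterodimers of a RAR and an RXR on DNA, where co-repressors are exchanged for co-activators, while enzymes of the CYP26 family degrade it. CRABP2 is known to hand retinoic acid to RARs in the nucleus, whereas CRABP1 is known as a cytosolic carrier linked to its turnover. DHRS3 reduces retinaldehyde back to retinol. In the nervous system the pathway is known for hindbrain patterning and neuronal differentiation.

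On GRCh38, GENCODE places CRABP2 (ENSG00000143320) on the minus strand at chr1:156699606-156705816 and CRABP1 (ENSG00000166426) on the plus strand at chr15:78340353-78348225. RARA (ENSG00000131759) lies on the plus strand at chr17:40309180-40357643, RARB (ENSG00000077092) on the plus strand at chr3:24687887-25597932, and RARG (ENSG00000172819) on the minus strand at chr12:53210567-53232980. RXRA (ENSG00000186350) is on the plus strand at chr9:134317098-134440585, and RXRB (ENSG00000204231) is on the minus strand at chr6:33193588-33200665. CYP26B1 (ENSG00000003137) and DHRS3 (ENSG00000162496) are both on the minus strand, at chr2:72129238-72147862 and chr1:12567910-12618210.

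The sequences before the start sites of CRABP2 and RARA are shown because these were the members whose samples separated by treatment, and the RARB element is shown because it was the only spaced repeat found. They were read from RefSeq promoter windows on GRCh38 of 300 bases, 250 before and 50 after a start, which were held for all 9 genes. The CRABP2 and RARA stretches hold only bases that lie in no annotated exon. The RARB stretch may hold exon bases. In its window the longest run free of annotated exons before the start was 46 bases, and its position relative to the stretch was not recorded. Capitals mark hexamers on either strand of the kind that RAR and RXR are known to contact. The letters searched were AGGTCA, with its close variant GGGTCA, and also AGTTCA, with its close variant GGTTCA. The CRABP2 stretch is chr1:156705817-156706034 (minus strand), the RARA stretch chr17:40308930-40309179 (plus strand), and the RARB stretch chr3:25428204-25428232 (plus strand).
CRABP2: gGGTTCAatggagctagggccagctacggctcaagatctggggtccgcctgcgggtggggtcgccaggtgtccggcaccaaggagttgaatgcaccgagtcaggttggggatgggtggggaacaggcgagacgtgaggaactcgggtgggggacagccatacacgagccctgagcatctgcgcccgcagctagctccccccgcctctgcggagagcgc
RARA: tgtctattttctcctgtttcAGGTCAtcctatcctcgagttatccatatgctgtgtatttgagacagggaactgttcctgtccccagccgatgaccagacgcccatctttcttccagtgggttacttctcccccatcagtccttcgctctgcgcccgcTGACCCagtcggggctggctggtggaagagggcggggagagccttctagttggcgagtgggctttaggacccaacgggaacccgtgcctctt
RARB: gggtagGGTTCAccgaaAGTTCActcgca

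A single hexamer is common: 38.6% of all 35116 windows held at least 1. The CRABP2 window held 1 and this RARA window held 2, so neither differs from what many promoters carry. RARA has other start-site windows, not printed here, and these held no such hexamer. A direct repeat of the hexamer on 1 strand with 5 bases between its copies, the layout known as DR5, was found in 0.0883% of all windows. Among the members it was present in RARB alone, where it lay 37 to 53 bases before a start site. Repeats with 1 or 2 bases between the copies were in none of the members' windows and in 0.131% and 0.0399% of all windows. The cAMP response element TGACGTCA, searched on both strands, was in 1.85% of all windows, and its shorter form TGACG, which the longer one contains, was in 24.6%. Neither was in a window of any of the 9 genes, which says only that these letters are not in these windows.

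Recovered reads per sample ranged from 18116816 to 21488793, and values are read counts divided by a size factor for each sample, called normalized counts. The RBM12 level was 244 to 279 in the untreated samples and 195 to 238 with isoproterenol, and without a control guide these values do not show the extent of the knockdown. RBM12 shares 575 exonic bases with CPNE1 on the same strand, and its difference did not pass the test (log2 fold change -0.25, adjusted p = 0.607 by limma). FOS, an immediate early gene of the cAMP response, was 536 to 680 in untreated and 1219 to 2338 in treated samples (log2 fold change 1.44, limma adjusted p = 0.435 without and 0.0268 with the block), while NR4A3, a cAMP-responsive nuclear receptor, had a log2 fold change of 0.49 (SE 0.073, limma adjusted p = 0.0324). All 10 genes listed as glutamatergic markers were in the table, summing to 147623 to 151038 in untreated and 149136 to 154108 in treated samples. Most of this sum was STMN2, MAP2 and DCX, which neurons in general express, so it does not show glutamatergic identity. NEUROD2 was at 3.10 to 10.4 and TUBB3 at 69.2 to 94.4. TUBB3 shares 1584 exonic bases with another gene on the same strand (ENSG00000198211), so its count does not measure its level. The sums of these 10 genes overlapped between groups. The sum of 3 inhibitory neuron genes separated by treatment (55.3 to 59.99 untreated, 66.9 to 79.0 treated), but these genes differed in direction. GAD1 and GAD2 had log2 fold changes of 0.74 and 0.49, whereas SLC32A1 was lower in each pair (-0.38). The sum of 2 of 5 astrocyte genes also separated (160 to 175 untreated, 134 to 157 treated), with log2 fold changes of -0.27 for AQP4 and -0.02 for S100B. None of these inhibitory or astrocyte genes passed limma with or without the block. The sum for peripheral or hindbrain neurons (4 of 4 genes) was 10753, 11768 and 10232 in untreated and 9518, 10920 and 9271 in treated replicates 1, 2 and 3, lower in each pair although the group ranges overlapped. Most of it was POU4F1, a sensory and hindbrain transcription factor, which was also lower in each pair (log2 fold change -0.15, limma adjusted p = 0.735 without and 1.4e-07 with the block). The sum for pluripotent cells (3 of 4, 51.2 to 84.2 and 59.9 to 71.5) overlapped, and so did COL1A2, the 1 of 5 mesenchymal genes in the table (15.5 to 24.2 and 15.4 to 25.4), and CCNB1, the 1 of 5 proliferation genes (112 to 147 and 123 to 145). The part of these marker differences in the values of the retinoid genes was not tested.

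Binding proteins were by far the most abundant members. Per kilobase of canonical transcript, CRABP1 stood at 20316 ± 849 normalized counts (SD, n = 3) in untreated neurons, rank 23 of 13783 protein-coding genes tested. CRABP2 followed at 949 ± 47.3, above 90.4% of those genes. RXRB was at 314 ± 7.80, near RXRG, the third RXR and not a member, at 325 ± 48.9, and the ranges of these genes overlapped. RARA came next at 94.8 ± 3.71 and RXRA at 61.4 ± 3.79, with no overlap between them. The lowest tested members were CYP26B1 at 10.2 ± 2.64, RARG at 7.49 ± 3.42 and RARB at 4.69 ± 2.58, and neighbours in this order overlapped. In these neurons, therefore, RARA was the main RAR transcript, at 84.2% to 93.4% of the RAR sum per kilobase in untreated samples, whereas the RXR sum was divided chiefly between RXRB (41.8% to 47.6%) and RXRG (43.6% to 49.6%).

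**Figure D1:**
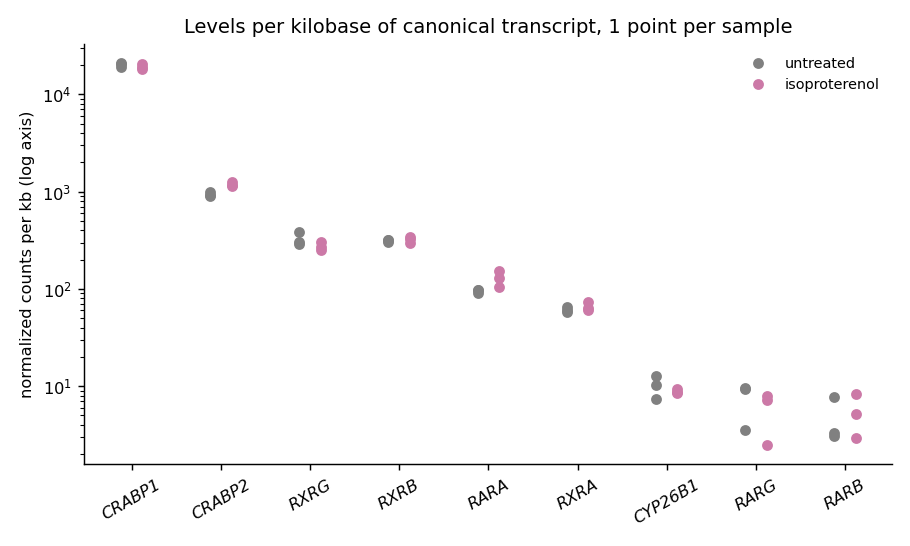
Normalized counts per kilobase of canonical transcript (log axis) for the 8 tested members and RXRG, with 1 point per sample and untreated and isoproterenol samples side by side. CRABP1 lies near 20316 and RARB near 4.69 in untreated neurons, while RXRG and RXRB overlap.

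CRABP2 was higher in every isoproterenol sample than in any untreated sample. Its normalized counts were 976, 911 and 888 in untreated replicates 1, 2 and 3 and 1221, 1106 and 1131 in isoproterenol replicates 1, 2 and 3. The group means were 925 ± 46.1 and 1153 ± 60.6 (SD, n = 3), 1.25-fold apart. On the log2(normalized count + 1) scale, the pairs with the same replicate number differed by 0.32, 0.28 and 0.35, and the log2 fold change was 0.32 with an SE of 0.062, or 0.049 when replicate number was a block. The treated increase was thus of similar size in each pair. Among all tested genes, 1464 (8.08%) had a log2 fold change at least as high.

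CRABP1, although far more abundant per kilobase, was slightly lower with isoproterenol in each pair, but its groups overlapped. The normalized counts were 14290.9, 15494.5 and 15193.2 in untreated replicates 1, 2 and 3, and 13595.3, 14994.7 and 14205.8 in the treated ones. Pair differences were -0.07, -0.05 and -0.10, and the log2 fold change was -0.07 (SE 0.041, 0.020 with the block). An opposite-strand gene sharing 440 exonic bases (ENSG00000279694) was at 8.98 to 22.3 normalized counts, and the sources used here do not state if counting was strand-specific.

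**Figure D2:**
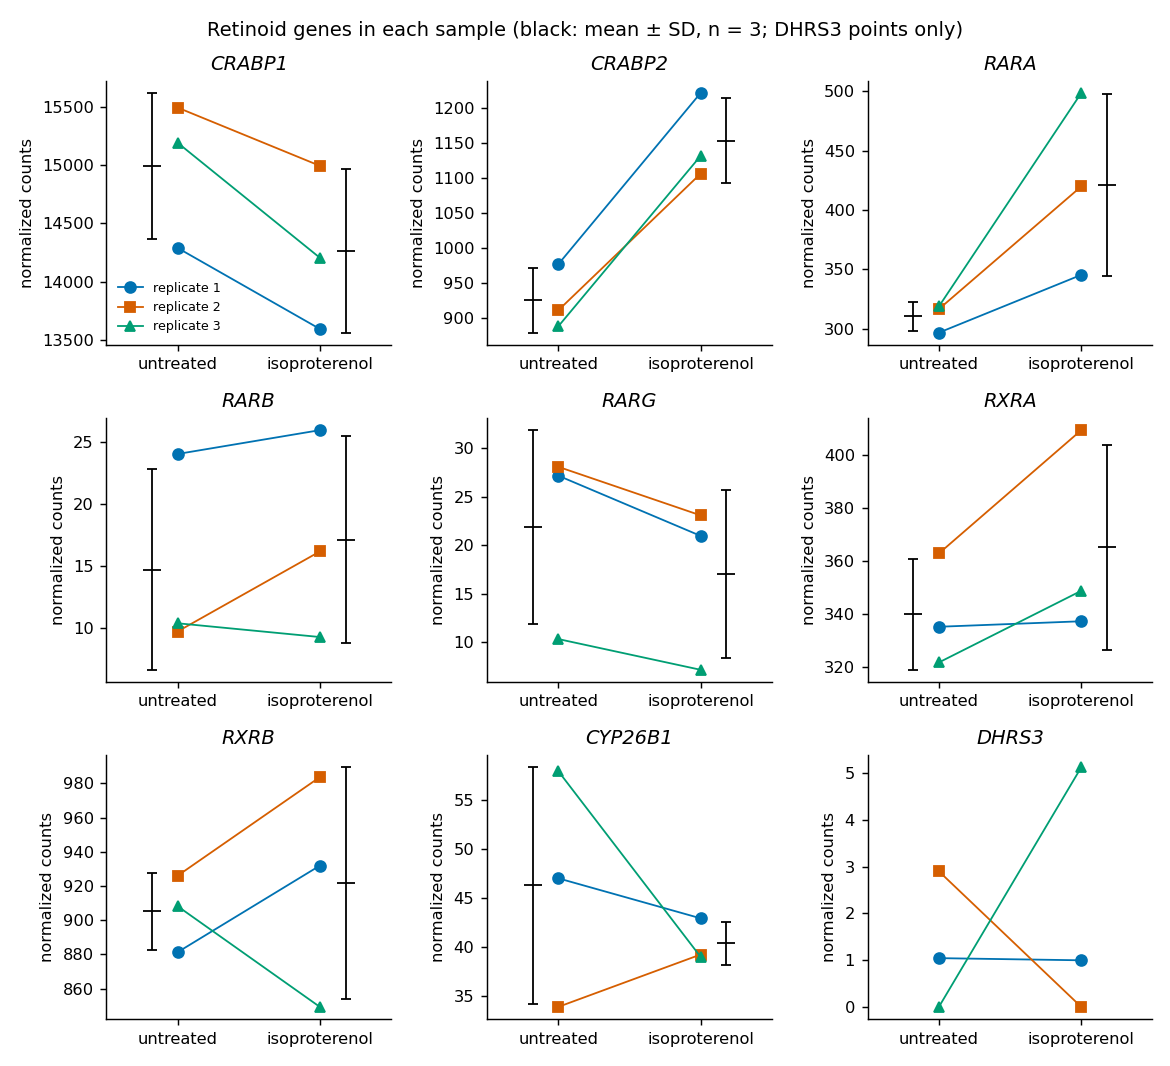
Normalized counts of the 9 genes in each sample, joined by replicate number, with the mean ± SD of 3 samples beside them (none for DHRS3); axes do not start at 0 and differ between panels. CRABP2 and RARA separate by treatment, whereas CRABP1 is lower in each pair with overlapping groups.

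With these values, the ratio of CRABP1 to CRABP2 transcripts was lower in all treated samples. Per kilobase it was 19.3, 22.5 and 22.6 in untreated and 14.7, 17.9 and 16.6 in isoproterenol replicates 1, 2 and 3. CRABP2 made up 4.47% ± 0.388 of the summed binding proteins in untreated and 5.79% ± 0.546 in treated neurons (SD, n = 3). The sum itself overlapped between groups, at 21265 ± 807 and 20513 ± 893 per kilobase, since CRABP1 dominates it.

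RARA, the ubiquitous RAR, was also higher in every treated sample, but by an amount that varied among pairs. It was at 297, 316 and 319 normalized counts in untreated replicates 1, 2 and 3, a narrow range, and at 345, 420 and 499 in the treated ones. The means were 311 ± 12.2 and 421 ± 76.6 (SD, n = 3), 1.36-fold apart. The pairs differed by 0.22, 0.41 and 0.64, and the log2 fold change was 0.42 (SE 0.11, 0.082 with the block), a value that 914 genes (5.04%) reached or exceeded. The antisense gene RARA-AS1 shares 556 exonic bases with RARA and was at 83.2 to 107 in untreated and 81.0 to 95.8 in treated samples, so it did not separate by treatment.

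RARB and RARG had few reads. RARB was at 24.0, 9.68 and 10.3 in untreated and 25.9, 16.1 and 9.23 in treated replicates, values that rest on 9 to 26 reads. Its log2 fold change was 0.21 with an SE of 0.42, and leaving out isoproterenol replicate 1 turned it to -0.13. RARB is the textbook retinoic acid target with the DR5 element shown above, and no difference in its transcript was detectable at this depth. RARG was at 27.1, 28.1 and 10.3 in untreated and 21.0, 23.1 and 7.18 in treated replicates, lower in each pair with wide overlap (log2 fold change -0.37, SE 0.45). Replicate 3 was the lowest for RARG in both groups.

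RXRA and RXRB, the partners of the RARs, overlapped between groups. RXRA was at 335, 363 and 322 in untreated and 337, 409 and 349 in treated replicates, with pair differences of 0.01, 0.17 and 0.12 and a log2 fold change of 0.10 (SE 0.095). RXRB was at 881, 926 and 908 in untreated and 932, 984 and 849 in treated replicates. It was higher in 2 pairs and lower in 1, with a log2 fold change of 0.02 (SE 0.065) that was -0.02 without isoproterenol replicate 2. The opposite-strand gene SLC39A7, which shares 361 exonic bases with RXRB, was at 2060 to 2132 in untreated and 1892 to 2016 in treated samples.

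Summed per kilobase, the RARs stood at 107 ± 2.63 in untreated and 140 ± 18.4 in treated samples, and the groups did not overlap, which follows from RARA. The RXR sum, with RXRG included, was 701 ± 58.2 and 660 ± 51.9, and overlapped. The RXR to RAR ratio was therefore 6.25, 7.02 and 6.36 in untreated and 5.24, 5.10 and 3.98 in treated replicates 1, 2 and 3. Within the RXR sum, the share of RXRA was 8.54% to 9.002% in untreated and 9.62% to 10.3% in treated samples, although RXRA counts themselves overlapped. The share of RXRG was 43.6% to 49.6% in untreated and 39.4% to 43.0% in treated samples, so it was lower without overlap.

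**Figure D3:**
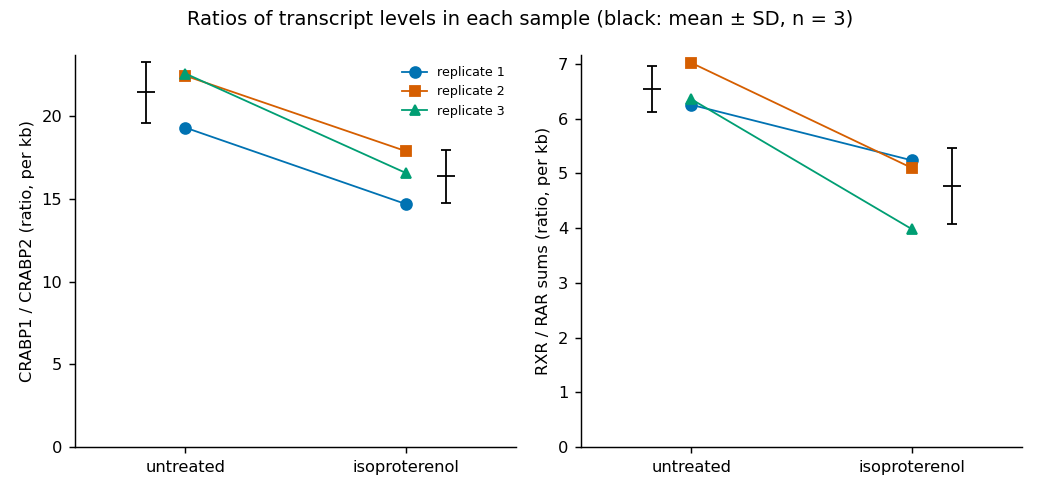
Ratio of CRABP1 to CRABP2 (left) and of the RXR sum to the RAR sum (right) per kilobase in each sample, joined by replicate number, with mean ± SD of 3 samples. Both ratios are lower in all 3 treated samples, from 21.5 to 16.4 and from 6.54 to 4.77 on average.

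For the enzymes, no separation by treatment was seen. CYP26B1 was at 47.0, 33.9 and 57.9 in untreated and 42.9, 39.2 and 39.0 in treated replicates (log2 fold change -0.16, SE 0.23), and the sign became positive, 0.01, without untreated replicate 3. DHRS3 was hardly detected, with 1, 3 and 0 reads in untreated and 1, 0 and 5 reads in treated replicates, and was not tested. Counts of 0 allow up to 3 reads in those samples, and no fold change is given.

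Read against all genes, 0 of the 8 tested members passed FDR 0.05 in the limma fit without the block, where 3 of 18130 genes did (0.0165%, with 0.00552% higher and 0.011% lower) and 1393 (7.68%) had an unadjusted p under 0.05. With replicate number as a block, 885 genes passed (4.88%), 511 higher (2.82%) and 374 lower (2.06%), and 3 members were among them: CRABP2 and RARA as higher and CRABP1 as lower. The blocked edgeR fit passed the same 3 members and 5.39% of all genes, whereas DESeq2 passed CRABP2 alone, with 0.127% of all genes without and 0.767% with the block. Groups did not overlap for 2 of the 8 members, both higher, compared with 12.9% of all genes (6.73% higher and 6.19% lower). In all 3 pairs, 3 members were higher and 2 lower, compared with 18.5% and 17.6% of all genes (36.1% in 1 direction or the other). Nothing is read from these counts, because the members were chosen on this comparison. The median log2 fold change was 0.06 over the members and 0.0015 over all genes tested.

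**Figure D4:**
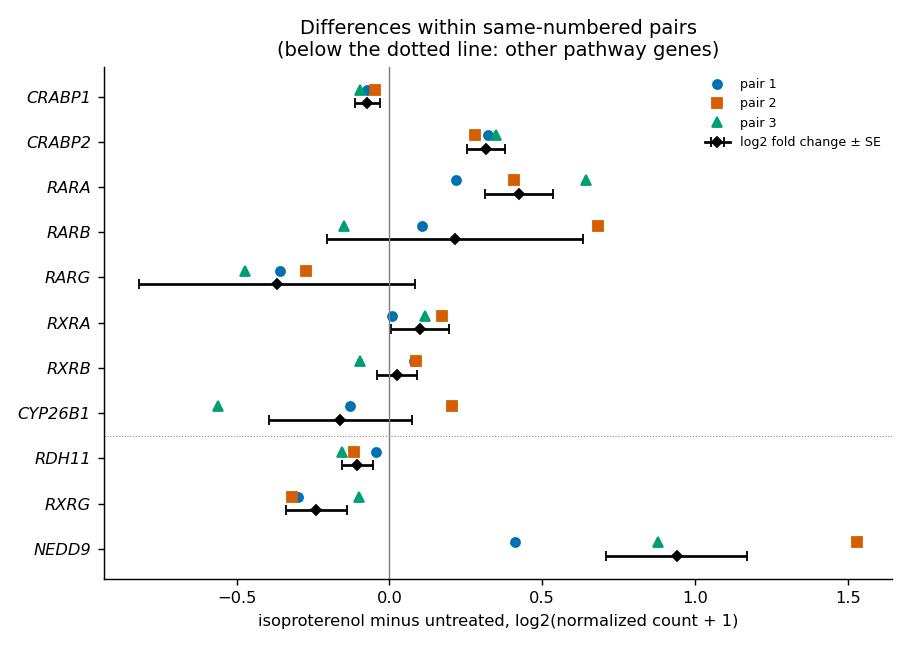
Differences between isoproterenol and untreated samples of the same replicate number on the log2(normalized count + 1) scale, with the log2 fold change ± SE of the limma fit without the block. All 3 pairs lie above 0 for CRABP2, RARA, RXRA and NEDD9, and below 0 for CRABP1, RARG, RDH11 and RXRG.

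Among the other genes of the pathway, 53 were listed and 34 were in the table and tested, and the 19 others were not analysed here. Of the 34, 0 passed FDR 0.05 by limma without the block, and 5 had an unadjusted p under 0.05, compared with 0.0165% and 7.68% of all genes. By edgeR and DESeq2 without the block, 0 passed as well. With the block, 4 passed by limma, compared with 4.88% of all genes. Of these 4, 2 were higher, NEDD9 among them, and RXRG and RDH11 were lower. The median log2 fold change was 0.03, and 20 genes were higher and 14 lower.

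NCOR1, a co-repressor that RARs hold in the absence of ligand, was at 4839 ± 138 in untreated and 4822 ± 143 normalized counts in treated samples (SD, n = 3), with a log2 fold change of -0.005 and a limma adjusted p of 0.987. The co-activator NCOA2 was at 3282 ± 166 and 3435 ± 110 (0.07, limma adjusted p = 0.782).

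NEDD9, a docking protein listed as a retinoic acid target, was at 41.8, 26.1 and 41.4 in untreated and 55.9, 77.3 and 76.9 in treated replicates. The log2 fold change was 0.94 (SE 0.23), and the limma adjusted p was 0.238 without and 0.00193 with the block. The treated samples were all above the untreated ones, but without replicate 2 the blocked adjusted p from limma was 0.168. RET and NTRK2, receptor tyrosine kinases and the most abundant genes on the target list, had log2 fold changes of 0.02 and -0.04 (limma adjusted p = 0.930 and 0.917). The other listed targets in the table were RARRES1, HOXB2, MEIS1, MEIS2 and RAI1, and none of these passed either fit.

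RXRG was at 603, 749 and 568 in untreated and 490, 600 and 530 in treated replicates, lower in each pair with overlapping groups. Its log2 fold change was -0.24 (SE 0.0998), with a limma adjusted p of 0.596 without and 0.0117 with the block, and the value was -0.12 without untreated replicate 2. The blocked adjusted p from limma was 0.113 without replicate 1 and 0.167 without replicate 2. RDH11, a retinaldehyde reductase, was at 2663, 2585 and 2852 in untreated and 2585, 2383 and 2561 in treated replicates (log2 fold change -0.10, SE 0.051, limma adjusted p = 0.651 without and 0.0486 with the block). Its blocked call did not hold without replicate 2 (limma adjusted p = 0.200) or replicate 3 (0.442), and it shares 346 exonic bases with another gene on the same strand.

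On the supply side, DGAT1, which can esterify retinol, was at 556 ± 41.9 and 594 ± 17.6 normalized counts (SD, n = 3; log2 fold change 0.10, limma adjusted p = 0.794). RDH13 was at 572 ± 33.0 and 589 ± 27.8 (0.04, limma adjusted p = 0.929). FABP5, which can carry retinoic acid to PPARD, was at 1910 ± 180 and 1953 ± 161, and PPARD at 453 ± 39.0 and 473 ± 32.5 (log2 fold changes 0.03 and 0.06, limma adjusted p = 0.944 and 0.907). ALDH1A2, a retinaldehyde dehydrogenase that forms retinoic acid, was at 18.8 to 40.3 in untreated and 17.3 to 25.9 in treated samples. SDR16C5, a retinol dehydrogenase, did not overlap between groups (3.10 to 9.68 and 10.3 to 19.6), but it rests on 3 to 17 reads and passed neither fit (limma adjusted p = 0.555 and 0.121).

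**Figure D5:**
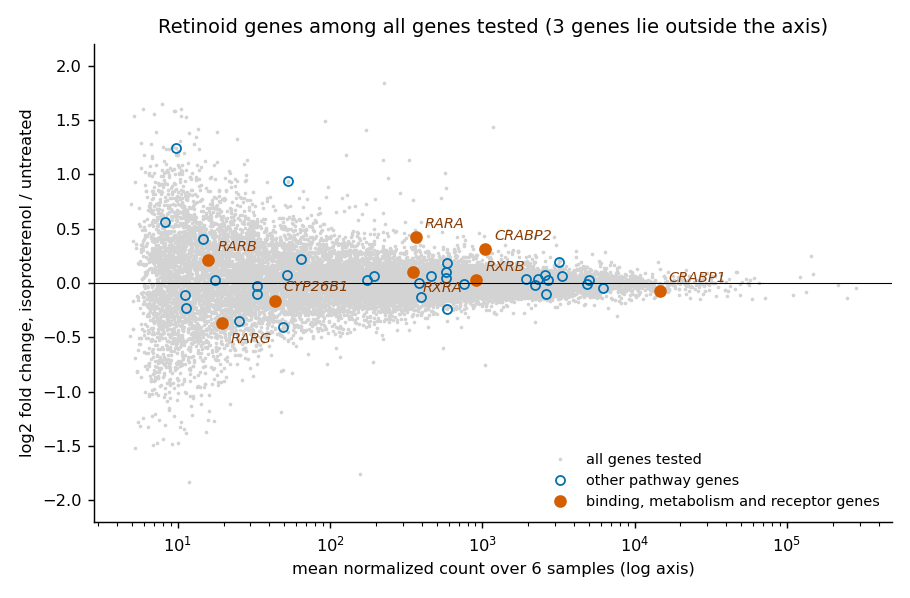
Log2 fold change of isoproterenol over untreated against the mean normalized count over 6 samples (log axis) for 18130 genes, with 3 genes beyond the axis. RARA at 0.42 and CRABP2 at 0.32 are both above 0, while CRABP1, at -0.07, lies just below 0.

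Replicate number itself was a source of variation, and its test was added after the values were seen. The members were also read within same-numbered pairs, and the error term of this test rests on the spread of those pair differences. The members' p-values in this test are therefore a description and support nothing. By a limma F test of replicate number in the blocked fit, 1866 of 18130 genes (10.3%) passed FDR 0.05. Of the 8 members, CRABP1 (adjusted p = 1.07e-04) and RARG (adjusted p = 0.0133) passed. CRABP1 was lowest in replicate 1 of both groups, and RARG was lowest in replicate 3 of both. CRABP2 (adjusted p = 0.268) and RARA (adjusted p = 0.0695) did not pass this limma test. Of the 34 other pathway genes 5 passed, with RXRG, RBP4, FABP5 and NTRK2 among them.

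The genes most like CRABP2 over the 6 samples were found among 13062 genes whose mean normalized count was 50 or more, by the root mean square difference between centred log2 profiles. They were CRIM1-DT (0.0336), SORL1 (0.0387), FZD4 (0.0387), PLEKHA8P1 (0.0425) and ZC3H12C (0.0449), compared with a median of 0.192 over all genes. Their log2 fold changes ran from 0.26 in SORL1 to 0.37 in PLEKHA8P1. Values near that of CRABP2 follow from this choice, because the profiles compared include the treatment difference. The members were not among the nearest: RXRA ranked 4742, RXRB 4802, RARA 8221 and CRABP1 9447. The distance of RARA from CRABP2, 0.208, exceeded this median, with the highest RARA value in isoproterenol replicate 3 and that of CRABP2 in isoproterenol replicate 1.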

How the data were processed

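The authors selected poly(A) RNA, prepared directional libraries, checked reads with FastQC, aligned them to GRCh38 with STAR and counted them per gene with featureCounts of Subread. Versions and the annotation are not given in the sources used here. The authors deposited 1 signal value per gene and sample, the count divided by a DESeq2 size factor (0.867 to 1.033). Every value was a whole multiple of 1 step per sample (tolerance 0.01), which returned whole reads for 100% of values.

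Samples were grouped by their titles. Genes were tested if more than 5 reads were recovered in 4 or more samples, a limit taken from the study's methods, which kept 18130 genes and removed 1693. The main test was limma 3.58.1 (trend, robust) in R 4.3.3 on log2(normalized count + 1), two-sided, with Benjamini-Hochberg adjustment over all genes tested. The added 1 understates changes of genes with few reads. Alternatives were a replicate block, edgeR 4.0.16 and DESeq2 1.42.0 on the recovered reads, other scalings, filters and a pseudocount of 5, and leaving out each sample. Scripts were tested on simulated data.

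Within each replicate number, the 2 samples' departures from their groups' averages had correlations of 0.269, 0.493 and 0.388 over 11587 genes, all above the preset limit of 0.1, so the labels' replicate numbers were taken to pair the samples. Libraries within a group differed beyond counting noise (chi-square per degree of freedom 3.25 to 5.31).

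Members and lists were chosen with earlier results of these data known. Named genes were the members, other pathway genes past FDR 0.05 with or without the block, the 2 most abundant of each pathway list, the 5 nearest profiles to CRABP2, and RBM12, FOS and NR4A3; some genes that this rule names are not reported here. ALDH1A2, SDR16C5, the remaining retinoic acid targets, the marker POU4F1, and genes sharing exons with members or markers were named after their values were seen. Positions and canonical transcripts came from GENCODE 44, which held 99.6% of the identifiers, and promoter windows from RefSeq on GRCh38.p14.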

Additional observations from a re-analysis of the deposited data

How the results depend on the processing

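The number of genes past FDR 0.05, 3 by limma without the block, was 885 with the replicate block, 977 by edgeR with the replicate block, 23 by DESeq2 and 139 by DESeq2 with the replicate block. Leaving out 1 sample gave 2 to 67, the highest without isoproterenol replicate 2. Of the members, 0 passed in the main fit, 3 with the replicate block by limma and by edgeR, and 1, CRABP2, by DESeq2 with or without it and by limma without isoproterenol replicate 2. Of the other pathway genes, 0 passed in the main fit, 4 with the replicate block by limma and by edgeR, and 1 by DESeq2 with the block. That 1 was none of NEDD9, RXRG and RDH11, whose adjusted p by DESeq2 with the block was 0.281, 0.527 and 0.761. Blocked fits without 1 replicate number, added after the data were seen, gave 531 genes without replicate 1, 665 without replicate 2 and 456 without replicate 3, with 2, 3 and 1 members and 3, 1 and 3 other pathway genes.

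The median log2 fold change of the members was -0.01 to 0.13 when 1 sample was left out, and that of the other pathway genes 0.014 without untreated replicate 1 to 0.041 without isoproterenol replicate 1. Over 19 alternatives, the log2 fold change was 0.28 to 0.36 for CRABP2, 0.29 to 0.56 for RARA, -0.11 to -0.04 for CRABP1 and 0.01 to 0.15 for RXRA; these members were chosen on this comparison. Those of RARB, RARG, RXRB and CYP26B1 changed sign when certain samples were left out. Over the same alternatives, adjusted p-values by limma, edgeR or DESeq2 ran from 0.000997 to 0.726 for NEDD9, 0.00506 to 0.935 for RXRG and 0.0268 to 0.967 for RDH11. With 3 samples against 3, an exact permutation test of 1 gene cannot go below 0.1. RARB, RARG, CYP26B1 and DHRS3 are limited by depth, and intervals that cover counting error alone would understate their spread.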
